A study of Mus musculus with 2 samples.

Results

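The genes described here are Hoxa10, Hoxc10, Hoxd10, Hoxa11, Hoxc11 and Hoxd11, the members of Hox paralog groups 10 and 11, and the accessible chromatin assigned to them. An accessible entry was a summit in a list of ATAC-seq peaks, and a peak interval can hold several summits. An entry was taken when its summit lay inside the span of 1 of the 6 genes, or nearer to an end of 1 of them than to any end of another protein-coding gene, within 100 kb. This gave 23 entries in 13 peak intervals, out of 138387 entries in 104069 intervals in all. The rule used positions alone and no measured strength.

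The series holds a single group of 2 replicates and no comparison group. Embryos were Hb9::GFP, strain C57/Bl6, taken at embryonic day 10.5, and their GFP-positive cells were purified by FACS and are labelled spinal motor neurons. Hb9 is an older name of Mnx1, and the GFP reporter marks cells in which the Hb9 promoter used for the transgene is active. The labels give neither the levels of the spinal cord that were collected nor whether the replicates came from separate litters.

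Hox genes lie in clusters, and their order along the chromosome matches the order along the body axis in which they are active. Proteins of groups 10 and 11 belong to the posterior class that marks lumbar levels, where Hoxc10 and Hoxd10 help to set the identity of motor neurons that project to the hindlimb. The Hoxa, Hoxc and Hoxd clusters have genes of both groups, and the Hoxb cluster has none. In ATAC-seq a transposase, Tn5, inserts adapters into open DNA, so the assay reads the accessibility of these genes and not their RNA.

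The values come from 1 list of peaks called on the replicates together. The spread between replicates is therefore unknown, and differences between genes were not tested over replicates. The number of reads that overlap at a summit was recovered from the deposited fold and p-value, and is called reads below. Each count of reads is given with its exact 95% Poisson interval where it carries a comparison, and that interval covers counting error only. A typical entry on the chromosomes had 24 reads, and 90% lay between 12 and 128. No entry had fewer than 11 reads, so a stretch without an entry was not shown to be closed. In a bulk sample, fewer cells with an open site and less opening per cell cannot be told apart.

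The labelled cell type was checked against defining genes by asking for a summit within 1 kb of a gene end. Motor neuron genes had one at 7 of 8 members, Isl2 being without, and neural progenitor genes had one at 4 of 4. Blood genes had one at 1 of 5 members (Spi1), endothelial genes at 2 of 3, and muscle and somite genes at 2 of 4. Over all 21887 protein-coding genes the share was 65.5%.

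The stretches in front of the transcript starts are shown because 13 of the 23 summits lay within 1 kb of the nearest listed start, 5 before it and 8 past it. For the 2 entries inside Hoxa11 that start was the one of Hoxa11os. The share over all entries was not computed. RefSeq starts on GRCm38.p6, the assembly behind mm10, were listed for 4 of the 6 genes. None was listed for Hoxc10 and Hoxc11, so their entries were not among the 13. Each line gives the 250 bases before a start, written 5′ to 3′ in the direction of transcription. Capitals mark the bases within 10 of a deposited summit, and the single run without capitals had no summit in it.

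Hoxd10, chr2:74691641-74691890, + strand: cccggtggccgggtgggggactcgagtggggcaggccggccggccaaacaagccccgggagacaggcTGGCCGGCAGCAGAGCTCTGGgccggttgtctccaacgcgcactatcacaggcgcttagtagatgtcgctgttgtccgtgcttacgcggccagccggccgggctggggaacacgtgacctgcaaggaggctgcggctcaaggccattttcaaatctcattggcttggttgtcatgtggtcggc
Hoxd11 inner start, chr2:74682073-74682322, + strand: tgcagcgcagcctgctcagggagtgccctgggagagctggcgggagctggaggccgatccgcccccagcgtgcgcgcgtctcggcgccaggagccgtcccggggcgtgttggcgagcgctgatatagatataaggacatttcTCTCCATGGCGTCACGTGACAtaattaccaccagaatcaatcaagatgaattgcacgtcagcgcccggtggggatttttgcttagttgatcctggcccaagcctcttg
Hoxd11 outer start, chr2:74679308-74679557, + strand: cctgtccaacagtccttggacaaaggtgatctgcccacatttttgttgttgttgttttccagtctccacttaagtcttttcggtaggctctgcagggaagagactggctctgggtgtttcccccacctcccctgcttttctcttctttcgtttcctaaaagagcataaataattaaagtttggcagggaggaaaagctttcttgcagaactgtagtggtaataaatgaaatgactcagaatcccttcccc
Hoxa10 outer start, chr6:52240855-52241104, − strand: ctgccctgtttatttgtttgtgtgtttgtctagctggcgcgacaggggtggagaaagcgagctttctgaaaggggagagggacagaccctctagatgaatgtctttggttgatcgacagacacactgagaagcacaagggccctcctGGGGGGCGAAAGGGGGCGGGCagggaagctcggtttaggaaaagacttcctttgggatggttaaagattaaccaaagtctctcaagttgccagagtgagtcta
Hoxa10 inner start, chr6:52234940-52235189, − strand: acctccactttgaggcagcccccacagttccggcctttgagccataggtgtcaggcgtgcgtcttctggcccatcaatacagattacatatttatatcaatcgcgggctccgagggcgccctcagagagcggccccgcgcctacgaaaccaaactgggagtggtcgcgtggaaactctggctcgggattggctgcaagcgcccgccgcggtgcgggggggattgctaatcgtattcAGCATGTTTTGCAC
Hoxa11os, antisense to Hoxa11, chr6:52244993-52245242, + strand: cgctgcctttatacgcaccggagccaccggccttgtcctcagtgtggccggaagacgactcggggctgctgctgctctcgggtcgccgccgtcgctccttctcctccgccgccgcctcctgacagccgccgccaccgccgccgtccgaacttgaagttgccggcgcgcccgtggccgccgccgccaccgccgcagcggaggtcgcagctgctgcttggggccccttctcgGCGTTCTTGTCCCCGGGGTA

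Hoxd10 had the strongest entry of the 6 genes. The gene spans chromosome 2, 74684273 to 74695106, and its listed start lies 3215 bp inside the span. The summit lay 173 bp before that start, in the interval from 74691333 to 74692079, with 80 reads (63.4 to 99.6), 5.52-fold over the local background. A second entry of 34 reads lay 819 bp past the start. No summit fell within 1 kb of the ends of the Hoxd10 span, so the accessible site of this gene is seen at its listed start and missed by its span ends.

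Hoxd11 showed the same arrangement, with a choice between starts. Its span, chromosome 2, 74679558 to 74687016, overlaps that of Hoxd10, and RefSeq lists an outer and an inner start. At the inner start 3 summits shared 1 interval of 1211 bp, from 74682019 to 74683229, with 41, 32 and 41 reads. The first of these lay 98 bp before the start with 41 reads (29.4 to 55.6) and 4.43-fold. The outer start had no summit within 1 kb, and the nearest lay 2667 bp past it. The 300-base window of the inner start held 25 CpG dinucleotides and that of the outer start 4, against a median of 7 over 32817 listed windows. These 3 entries were also nearer to the annotated end of Hoxd10 than to that of Hoxd11 and were counted for both genes. No other entry was shared, so the 23 entries give 26 assignments.

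Hoxa10 had the most entries, 7 of the 23. The gene spans chromosome 6, 52231197 to 52240854, on the minus strand. At its outer start the summits lay 93 bp before the start with 43 reads and 297 bp past it with 49. At its inner start, inside the gene, 4 summits shared 1 interval of 1035 bp. The one 4 bp before the start had 47 reads, and the others had 48, 40 and 34 reads at 221, 535 and 769 bp past it. Thus both starts of Hoxa10 carried accessible sites of much the same read count, unlike those of Hoxd11. The entry with most reads, 58 (44.0 to 75.0, 3.08-fold), lay outside the gene, 312 bp past its lower-coordinate end.

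That entry, at chromosome 6, 52230555 to 52231051, lay 720 bp upstream of Mir196b, a microRNA gene between Hoxa9 and Hoxa10. Its summit also lay inside Gm52902, a long non-coding RNA gene that spans 52227504 to 52232651. MicroRNAs of the miR-196 family are known to act on transcripts of Hox genes. Mir196a-2 lies in the matching place beside Hoxc10, and there the nearest summit upstream was 6470 bp away with 49 reads. The 5p products of both genes are shown because they share the seed, bases 2 to 8, given in capitals.
mmu-miR-196b-5p: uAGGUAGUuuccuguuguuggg
mmu-miR-196a-5p: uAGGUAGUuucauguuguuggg
They differ by C12A, counted from the 5′ end, with the base of miR-196b first.

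Hoxa11 had the fewest reads. The gene spans chromosome 6, 52242105 to 52245810, on the minus strand, and its entries had 26, 26 and 15 reads. The 2 entries of 26 reads (17.0 to 38.1) shared the interval from 52245110 to 52245490, at 1.97-fold and 2.0-fold. They lay inside the gene, 577 and 391 bp past the Hoxa11 start, and none lay in the 250 bases before it. The first of them lay 10 bp before the start of Hoxa11os, a long non-coding RNA transcribed from the opposite strand, so reads of the Hoxa11 promoter and of the antisense start cannot be told apart here. The 300-base window of that antisense start held 41 CpG dinucleotides, more than any other window of these genes. The third entry, 15 reads at 1.83-fold, lay 6376 bp upstream of Hoxa11 and was the only 1 of the 23 with a q-value of 0.05 or more.

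Hoxc10 had its strongest site at its lower-coordinate end. The gene spans chromosome 15, 102966796 to 102971898. The summit lay 175 bp outside that end, in the interval from 102966482 to 102967246, with 74 reads (58.1 to 92.9) and 5.46-fold. The same interval held a summit of 49 reads 84 bp inside the gene. An entry of 47 reads lay 2916 bp away, on the side of Hoxc11.

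Hoxc11 spans chromosome 15, 102954526 to 102956701, and is the shortest of the 6 genes. It was accessible near both of its ends at similar counts. The interval at the lower-coordinate end held summits of 27 and 30 reads, 239 and 473 bp inside the gene. The interval at the upper end held 27 and 29 reads, 662 and 406 bp inside. The strongest of the 4 had 30 reads (20.2 to 42.8) at 3.45-fold. A further entry of 15 reads and 2.39-fold lay 4656 bp away on the side of Hoxc12. Hotair, a long non-coding RNA gene between Hoxc11 and Hoxc12, reaches into the sequence assigned to Hoxc11 and had no summit inside it. An entry of 65 reads assigned to Hoxc12 lay close outside Hotair, with its summit at 102943281 and the lower-coordinate end of Hotair at 102944062.

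**Figure D1:**
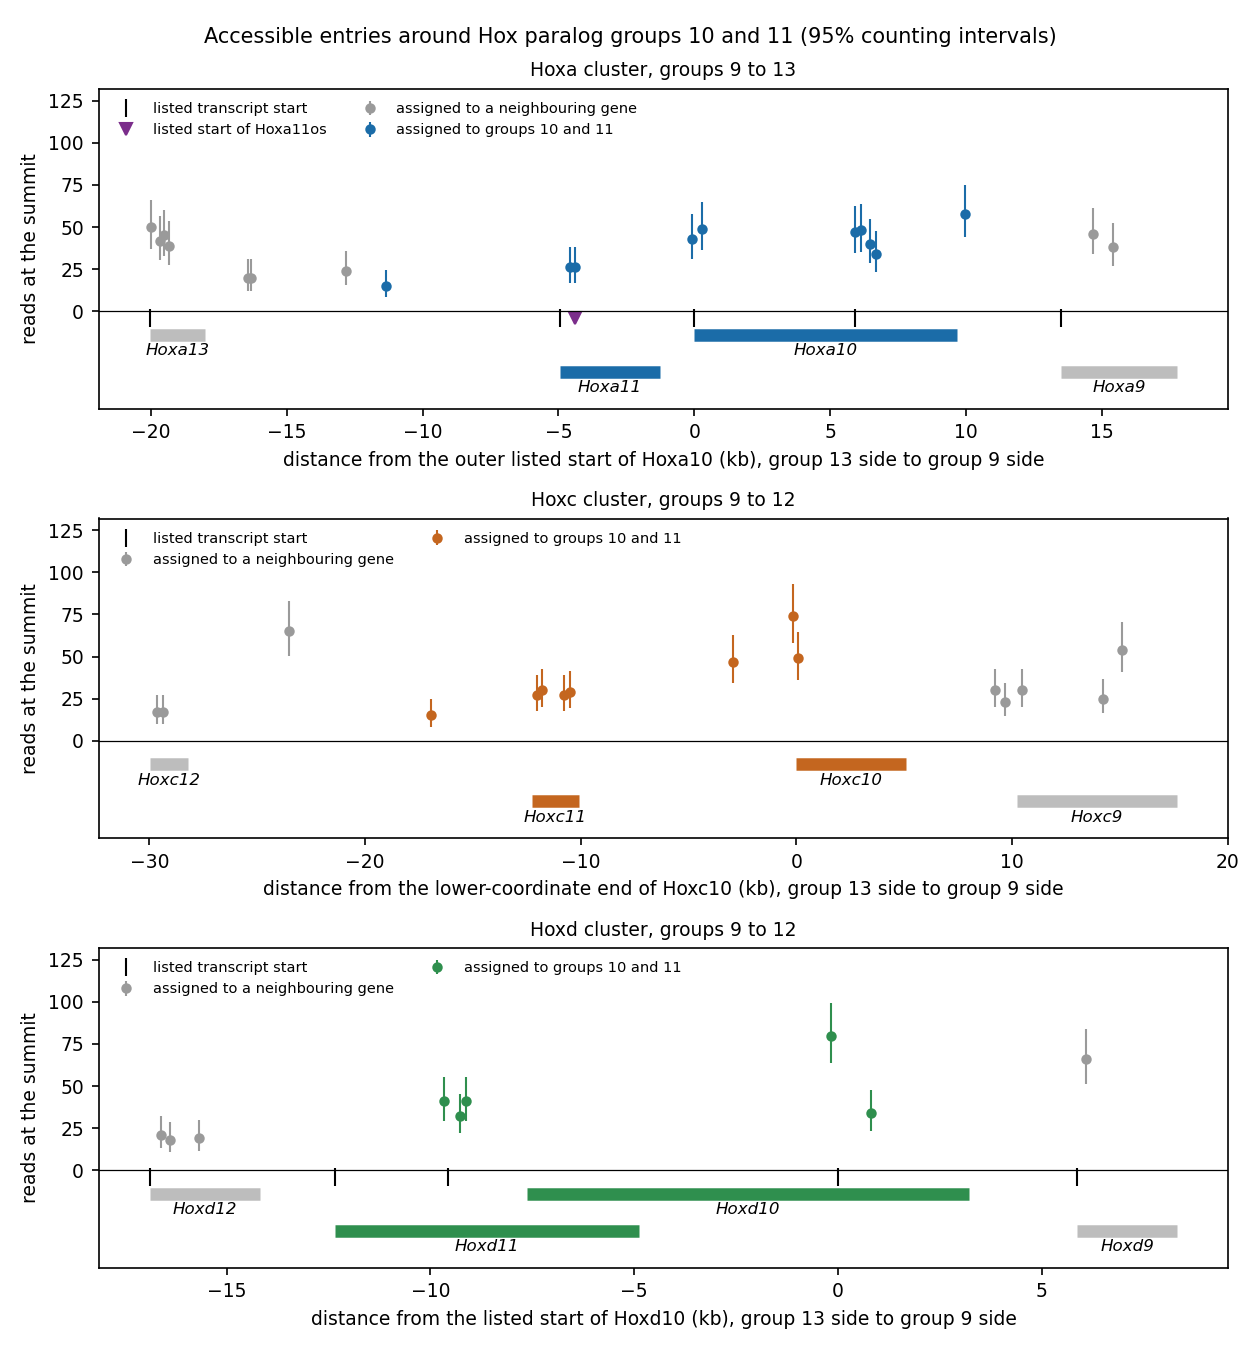
Reads at each summit (y axis) against distance in kb from the outer listed start of Hoxa10, the lower-coordinate end of Hoxc10 and the listed start of Hoxd10, drawn from the group 13 side to the group 9 side. Coloured points are the 23 entries of groups 10 and 11, grey points belong to neighbouring genes, bars are gene spans, black ticks are listed starts and vertical lines are 95% counting intervals. In each cluster the group 10 gene has an entry above the highest of the group 11 gene, and the outer start of Hoxd11 has no entry near it.

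Within each cluster the group 10 gene had more reads at its strongest entry than the group 11 gene. The values were 58 and 26 for Hoxa10 and Hoxa11. They were 74 and 30 for Hoxc10 and Hoxc11. For Hoxd10 and Hoxd11 they were 80 and 41. The counting intervals of the genes did not overlap in any of the 3 clusters. With entries inside the spans only, Hoxa10 and Hoxc10 both had 49 reads (36.3 to 64.8), which overlaps the intervals of Hoxa11 and Hoxc11, so that the separation then held in Hoxd alone. The highest fold was also greater in group 10 in each cluster, at 3.60 and 2.0 in Hoxa, 5.46 and 3.45 in Hoxc, and 5.52 and 4.43 in Hoxd. These are single maxima taken over 3 to 7 entries per gene, and the difference has no replicate check. The counting intervals take no account of the choice of a maximum. Intervals without overlap were not particular to groups 10 and 11. Those of Hoxa9 and Hoxa10 did not overlap either, while those of Hoxc9 and Hoxc10 and of Hoxd9 and Hoxd10 did. The share of such pairs among all neighbouring Hox genes was not computed. Over the entries of each group, the median was 47 reads for group 10 (15 entries) and 27 for group 11 (11 entries), with the 3 shared Hoxd entries in both. In Hoxd the medians were equal at 41 reads because of those shared entries, and with them counted for Hoxd11 alone the median of Hoxd10 was 57.

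The genes next to them in the clusters were mixed in this respect. Hoxa9 had 103 reads at its strongest entry, above Hoxa10, at a summit outside its span and with no summit within 1 kb of its ends. Hoxa13 had 50 (37.1 to 65.9), above the 26 of Hoxa11 with overlapping intervals. Hoxc9 had 54 (40.6 to 70.5), below the 74 of Hoxc10 with overlapping intervals. Hoxc12 had 65, at a site 3287 bp beyond the border of the sequence assigned to Hoxc11, and at most 17 within 1 kb of its own ends. Hoxd9 had 66 (51.0 to 84.0), which overlaps the interval of Hoxd10, and Hoxd12 had 21. The lowest strongest entry among the 39 Hox genes was that of Hoxd12, followed by Hoxa11 and Hoxc11. Hoxb2 and Hoxb3, with 40 reads each at their gene ends, were nearest to the median of 44 reads over the 4 genes of groups 10 and 11 with a gene-end entry.

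**Figure D2:**
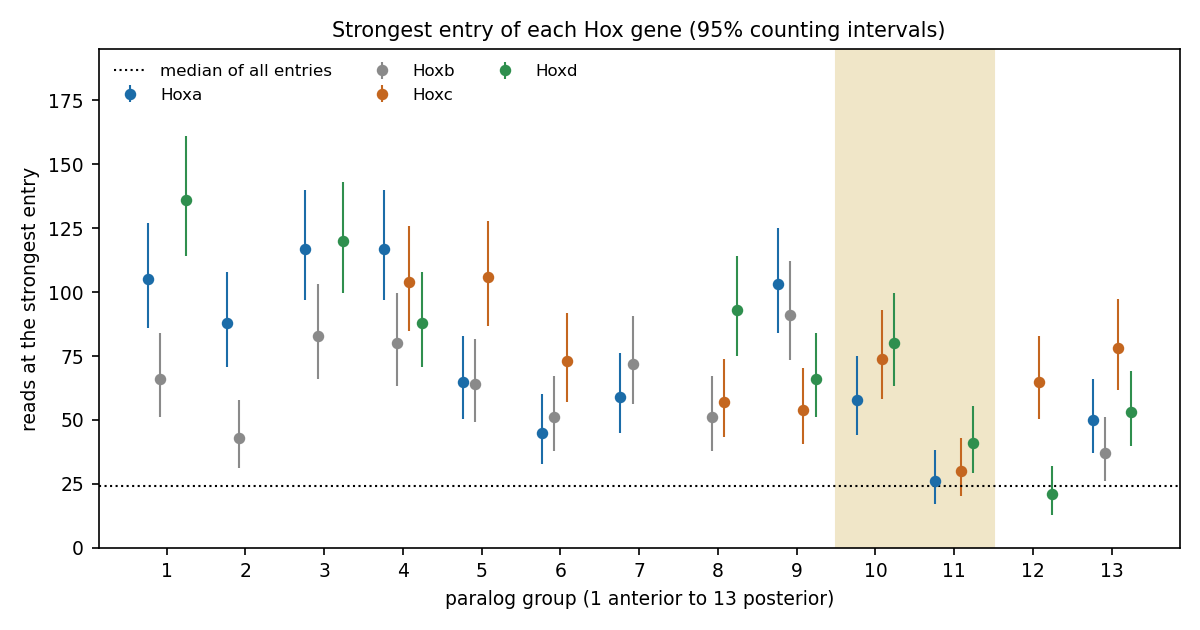
Reads at the strongest entry of each of the 39 Hox genes (y axis) by paralog group (x axis), coloured by cluster, with 95% counting intervals; the shaded band marks groups 10 and 11 and the dotted line the median of 24 reads over all entries on the chromosomes. Group 10 sits at 58 to 80 reads and group 11 at 26 to 41.

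The local background, which the peak caller takes from the reads around a site, was lower at the group 11 gene than at the group 10 gene in each cluster. Without a control library, reads of nearby peaks can enter it. Its genome-wide level was 5.37 reads, and all 23 entries lay above that level, from 5.70 to 18.1 reads with a median of 12.5. Of all entries on the chromosomes, 54.6% lay above it and the median was 5.72. In Hoxa the median per gene was 21.8 at Hoxa9, 14.9 at Hoxa10, 12.5 at Hoxa11 and 7.87 at Hoxa13. In Hoxc it was 14 at Hoxc9, 12.5 at Hoxc10, 8.05 at Hoxc11 and 6.58 at Hoxc12. In Hoxd it was 13.2 at Hoxd9, 8.97 at Hoxd10, 8.75 at Hoxd11 and 7.63 at Hoxd12. The 8.97 of Hoxd10 rests on the 3 entries it shares with Hoxd11. With these counted for Hoxd11 alone, or with entries inside the spans only, Hoxd10 had 14 reads, above the single entry of Hoxd9, and with 1 entry per interval it had 13.7. The fall from group 9 to group 10 in Hoxd thus turned with this choice, while group 11 lay below group 10 in all 3 clusters with either choice. By groups the medians were 17.8 reads for groups 1 to 3, 17.8 for 4 and 5, 16.9 for 6 to 8, 14.1 for 9, 12.5 for 10 and 11, and 6.96 for 12 and 13.

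**Figure D3:**
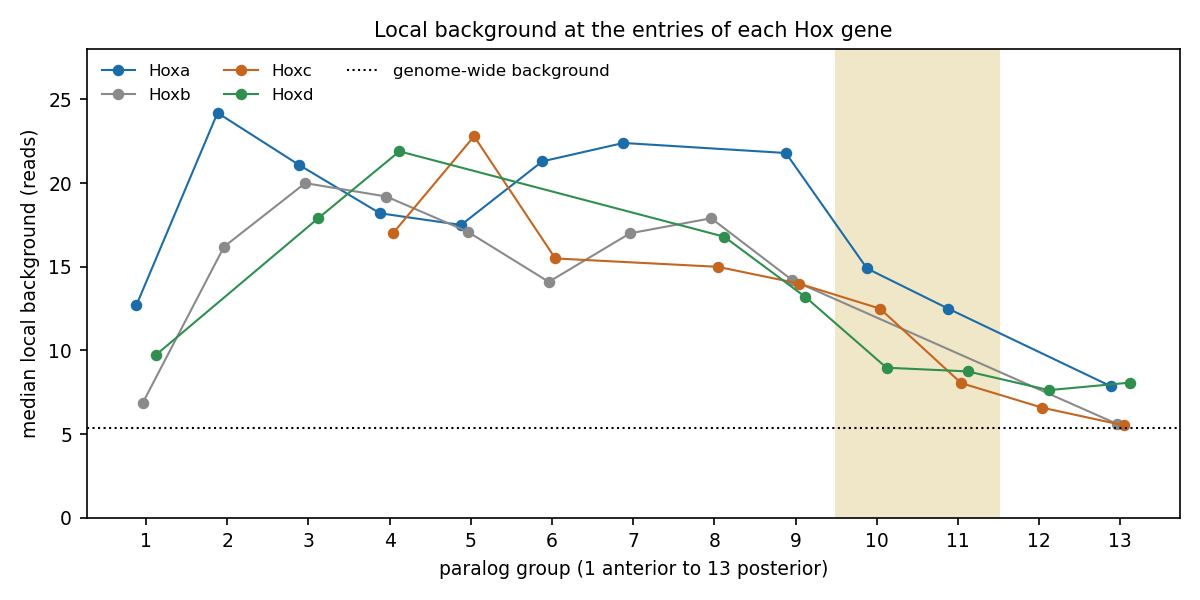
Median local background in reads (y axis) at the entries of each Hox gene by paralog group (x axis), with a line per cluster, the shaded band over groups 10 and 11 and a dotted line at the genome-wide 5.37 reads. Groups 10 and 11 lie between 8.05 and 14.9 reads, and each lies above the group 12 or 13 gene next to it in the same cluster; the point of Hoxd10, 8.97, is 14 without the entries shared with Hoxd11.

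With groups 10 and 11 pooled, the number of reads at the summits did not step down in the same way before groups 12 and 13. The median entry of groups 10 and 11 had 40 reads (exact 95% interval of the median 29 to 47), next to 40.5 for group 9 (27 to 54), 45 for groups 6 to 8 (41 to 57) and 21 for groups 12 and 13 (17 to 25). This depended on the pooling and on the setting. Taken apart, the median was 47 reads for group 10 and 27 for group 11, and the median background fell between them too. Among the upper 50% of entries by −log10 q, the median was 62 reads for groups 1 to 3. It was 54 for group 9, 43 for groups 10 and 11 and 38 for groups 12 and 13 in that setting. With entries inside the spans only, the order turned, at 34 for groups 10 and 11 and 38 for groups 12 and 13. With q under 0.05 these medians were 40.5 and 23, and with 1 entry per interval 41 and 20. Of the 23 entries, 21 had more reads than the median entry on the chromosomes, a mark that 48.7% of all entries passed. A q-value under 0.05 was reached by 22 of the 23, against 82.3% of all entries. The median fold was 3.09, next to 3.14 over all entries, and 10 of the 23 exceeded the latter. A site in a raised surrounding has a lower fold for the same reads, since the local background is the divisor.

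Entries lay close together in these parts of the clusters. The 6 genes had 23 entries in 68.75 kb of assigned sequence, or 0.335 per kb (exact 95% Poisson interval 0.212 to 0.502, treating entries as independent although 7 of the 13 intervals hold several). Single genes ranged from 0.236 per kb at Hoxc10 to 0.574 at Hoxa10, against a median of 0.06 over all protein-coding genes under the same rule. Group 9 had 0.308 per kb (0.193 to 0.466), groups 6 to 8 had 0.413 (0.277 to 0.593), and groups 12 and 13 had 0.185 (0.133 to 0.25). A median gene was assigned 49.5 kb and 3 entries, and the median of the 6 genes was 12.6 kb and 4 entries. Whether the short assigned stretches set the higher density was not tested. Each stretch was bounded by a neighbouring Hox gene and none by the 100 kb limit. At the closest border, an entry of 15 reads lay 145 bp inside the stretch of Hoxa11 and the next, of 24 reads, 1342 bp outside it.

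Accessible sites were absent from the list over several stretches within these loci. Within the assigned sequence, the longest ran for 8103 bp between the Hoxd11 and Hoxd10 sites, for 7240 bp between Hoxc11 and Hoxc10, and for 6660 bp upstream of Hoxa11. In Hoxc a further stretch began after 102967246 and crossed the border at 102974465, with the next summit at 102976029. Of the 17.8 kb assigned to Hoxd10 and Hoxd11 together, peak intervals covered 2427 bp. They covered 3099 bp of 23.0 kb in Hoxa and 2612 bp of 27.9 kb in Hoxc. The intervals were wide, with a median of 663 bp against 379 bp over all intervals on the chromosomes.

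Gene ends and transcript starts gave different members. A summit within 1 kb of a span end was found at 4 of 6 genes, Hoxa10, Hoxa11, Hoxc10 and Hoxc11, against 65.5% of all protein-coding genes. A summit within 1 kb of a listed start was found at 4 of 4 genes with one, Hoxa10, Hoxa11, Hoxd10 and Hoxd11, against 66.5% of 17492 genes. By at least 1 of these measures, each of the 6 genes had an accessible site. The share of all protein-coding genes that pass either measure is not given here, and it cannot be below 65.5%. The strongest entries at these starts had 80 reads at Hoxd10, 49 at Hoxa10, 41 at Hoxd11 and 26 at Hoxa11. All but Hoxd10 lay below the lower quartile of 62 reads over genes with such an entry, whose median was 102.

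Few short motifs were found in the 300-base windows around these starts (250 bases before to 50 after, both strands). The 7 windows are those of the lines above and of Hoxa11. The LIM and other homeodomain core TAATTA was found once at each start of Hoxd11, at 87 bp before the inner start and 81 bp before the outer one, and 5.30% of all 32817 windows hold it. The first begins right after the bases marked around the summit of the inner start. The nuclear receptor half-site AGGTCA was found once, 69 bp before the Hoxd10 start, and 16.3% of windows hold it. The GC box GGGCGG was found at the outer start of Hoxa10 and the inner start of Hoxd11 (35.6% of windows), CCAAT at the Hoxd10 start and the inner start of Hoxa10 (37.4%), and TATAAA at the inner start of Hoxa10 and at Hoxa11os (13.6%). The caudal-type words CCATAAA and GCAATAAA and the Hox and Pbx words TGATTTAT and TGATTTAC were in none of the 7 windows, and in 2.75%, 0.972%, 0.978% and 0.552% of all. A match is a stretch of letters and not a bound site.

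Cofactors of Hox proteins and genes of posterior patterning were taken as a further list of 20 genes, of which 19 had a summit within 1 kb of a gene end, Meis3 being without, against 65.5% of all protein-coding genes. The strongest gene-end entries were those of Lin28b, an RNA-binding protein of early development, with 213 reads, and Pbx4, a DNA-binding partner of Hox proteins, with 210. The median of the 19 was 97 reads, equal to that of all genes with a gene-end entry and above the 26 to 74 of the 4 genes of groups 10 and 11 with one. The caudal genes Cdx1, Cdx2 and Cdx4, known to act before the posterior Hox genes, had 28, 61 and 21 reads.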

How the data were processed

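ATAC-seq was measured in 2 replicates of FACS-sorted Hb9::GFP cells at embryonic day 10.5 (paired 75-nt reads). Per the submitters' processing notes, the build was mm10 and the tools were MACS2 2.2.7.1, BWA 0.7.1.7, SAMtools 1.7.2, cutadapt 0.6.2 and Trim Galore. Their settings, duplicate handling, any Tn5 shift and the filter were not given in the sources used here. The authors deposited 1 pooled, filtered peak list. In it the fold is a ratio of pileup to local background, the significance values are a −log10 p-value and a −log10 q-value, and the score, deposited by the authors, was not used. All folds printed are the authors'.

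Reads and background were solved from the deposited fold, (reads + 1)/(background + 1), and the Poisson tail. The solution was whole to within 0.01 for 99.96% of entries, and all of 5000 artificial entries were recovered (100.0%). The total depth of either library is unknown. Genes came from RefSeq GRCm38.p6 (21887 protein-coding genes on the autosomes, X and Y), and coordinates are mm10, counted from 1. Analyses used Python 3.11.15 and scipy 1.17.1.

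The members, the lists and the motifs were chosen with earlier results of these data known. Named were the 6 genes, their neighbours in each cluster, the 2 Hox genes nearest in gene-end reads, and the 3 genes of the cofactor list with most, of which 1 is not reported here; Meis3 and the Cdx genes were added after their values were seen. With 1 pooled list, no test over samples was made and no replicate could be left out. Alternatives were q under 0.05, the upper 50% of entries by −log10 q, 1 entry per interval, named genes only, a reach of 50 kb, spans only and a 500 bp window.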

Additional observations from a re-analysis of the deposited data

How the results depend on the processing

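Of 32 alternative values for the 5 summary results, 30 stayed within 1.5 times a count or within the 95% interval of the value. Named genes only and a reach of 50 kb returned the same entries, so their values had no room to move. With 1 entry per interval the count fell from 23 to 13 and the density from 0.335 to 0.189 per kb, because that setting keeps a single summit of each interval. The strongest entry of the group 10 gene stayed above that of the group 11 gene in 3 of 3 clusters under all but 1 of 7 alternatives. Most of these settings could hardly alter that order, since filters that drop weaker entries leave a strongest entry in place. Only with spans only did the reads of a kept strongest entry change. Among entries with the upper 50% of −log10 q values the order held in 2 of 2, since Hoxa11 then had none. With spans only, the strongest entries of Hoxa10 and Hoxc10 were both 49 reads and their intervals (36.3 to 64.8) overlapped those of Hoxa11 and Hoxc11. The higher median of group 10 held in 2 of 3 clusters in the main assignment, the exception being Hoxd at 41 reads each. Gene-end entries were found at 3 of 6 genes with the upper 50%, and summits inside the span at 6 of 6. Shares over all genes are not given for these settings. Chosen after seeing the data were listed transcript starts in place of gene ends, peak intervals in place of summits, and counting the shared Hoxd entries for Hoxd11 alone. The starts gave 4 of the 4 genes with a listed start, Hoxc10 and Hoxc11 having none. Peak intervals gave 4 of 6 genes. No paired analysis was possible because there is 1 group and 1 pooled list. Low read counts limit what can be said of Hoxa11 and Hoxc11, whose strongest entries of 26 and 30 reads were near the 24 of a median entry.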
